A study of Arabidopsis thaliana with 4 samples.

Results

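CHG methylation was followed in the 3 trinucleotides that make up this sequence context, CAG, CTG and CCG, at the cytosines lying within 2 Mb outside the centromeric repeat arrays of Arabidopsis thaliana. A cytosine was taken when it had at least 4 calls (reads that report it as methylated or not) in each of the 4 libraries. This left 593472 cytosines, which is 60.6% of the 978961 CHG cytosines listed for these flanks and a part of the 2952611 CHG cytosines that met the same minimum in the whole nuclear genome. They comprised 229627 CAG, 230082 CTG and 133763 CCG cytosines, and CCG was covered more often, at 65.4% of its listed cytosines against 59.3% for CAG and 59.4% for CTG. Methylation levels played no part in the choice.

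The measurements are from enzymatic methyl-sequencing (EM-seq), in which unmethylated cytosines are deaminated enzymatically and methylated ones still read as C. All plants were of the Col-0 accession, and DNA came from leaves at the age of 6 weeks. The groups were the wild type (WT), the ccr4a ccr4b mutant, the ddm1 rdr2 mutant, and the mutant in all 4 genes, ccr4a ccr4b ddm1 rdr2, called the 4-gene mutant here. Each genotype is 1 library, and the labels used here name neither the alleles nor how many plants went into it. A difference between libraries therefore has no replicate error, and no test between genotypes was made. The 95% intervals given are Wilson intervals for a level, Newcombe intervals for a difference and Katz intervals for a ratio. They cover counting error alone, and since reads amplified by PCR are not independent molecules they are too narrow.

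CHG methylation in plants is maintained by the methyltransferase CMT3, which binds histone H3 dimethylated on lysine 9. The histone methyltransferase KYP (SUVH4), in turn, binds DNA methylated in CHG, so the marks sustain each other in pericentromeric heterochromatin. CAG on one strand faces CTG on the other, so that a CAG and its CTG partner form a symmetric pair. CCG is different: the cytosine opposite belongs to a CGG, and the inner cytosine of CCG is itself a CG site, the substrate of the maintenance methyltransferase MET1. DDM1 is a chromatin remodeller needed for methylation of heterochromatin in all contexts, RDR2 makes the double-stranded RNA precursors of small interfering RNAs in RNA-directed DNA methylation, and CCR4a and CCR4b are deadenylases that shorten the poly(A) tails of mRNAs.

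One window of 60 bases from each chromosome shows the 3 trinucleotides as they lie together. A script took, per chromosome, the window richest in well-covered CHG cytosines among windows with at least 2 of each trinucleotide and at least 30% CHG methylation in WT, so high WT levels in them follow from the choice. The sequences are the plus strand, read from the trinucleotides of the deposited tables in coordinates of the ColCEN assembly. A capital C marks a measured CHG cytosine of the plus strand and a capital G one of the minus strand.

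Chromosome 1 window: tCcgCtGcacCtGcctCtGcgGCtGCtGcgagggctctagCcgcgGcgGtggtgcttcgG
Chromosome 2 window: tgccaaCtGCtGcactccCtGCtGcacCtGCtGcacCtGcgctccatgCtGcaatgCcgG
Chromosome 3 window: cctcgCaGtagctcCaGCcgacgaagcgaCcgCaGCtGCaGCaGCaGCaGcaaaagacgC
Chromosome 4 window: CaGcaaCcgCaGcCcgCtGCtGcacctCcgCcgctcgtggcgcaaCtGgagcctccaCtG
Chromosome 5 window: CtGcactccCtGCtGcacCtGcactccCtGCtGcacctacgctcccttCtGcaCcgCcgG

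The chromosome 1 window (chr1:14211205-14211264) holds 5 CAG, 5 CTG and 6 CCG cytosines. Its CAG and CTG cytosines together stood at 48.4%, 51.8%, 10.7% and 21.01% in the libraries as listed above, from WT to the 4-gene mutant. Its CCG cytosines stood at 25.4%, 27.4%, 1.93% and 7.12% in the same order. CCG was thus the lower class in every library there, and the 4-gene mutant had more of both classes than ddm1 rdr2. The windows of chromosome 2 (chr2:7013521-7013580), chromosome 4 (chr4:8110184-8110243) and chromosome 5 (chr5:15907051-15907110) had CAG and CTG levels in WT of 57.9%, 46.3% and 58.5%, and CCG levels of 46.4%, 38.2% and 40.6%. In ddm1 rdr2 the CAG and CTG levels of these windows were 9.77%, 17.1% and 7.04%, and the CCG levels 8.00%, 4.75% and 4.35%. The chromosome 3 window (chr3:16499991-16500050), a run of CAG repeats, was nearly even between classes in WT, with 46.7% in CAG and CTG (interval 44.3% to 49.2%) and 45.2% in CCG (39.9% to 50.5%). It was at 1.98% and 0.692% in ddm1 rdr2. The 4-gene mutant was above ddm1 rdr2 in both classes in the chromosome 5 window too, at 8.89% and 6.59%. It was below ddm1 rdr2 in both classes in the other windows. Its levels were 7.84% and 0 on chromosome 2, 0.735% and 0.461% on chromosome 3, and 15.5% and 2.68% on chromosome 4. CCG was the lower class in each of the 5 windows in each of the 4 libraries, but single windows rest on 131 to 4324 calls per class and library, and some of the intervals overlap. In the chromosome 2 window of the 4-gene mutant, for instance, 0 of 131 CCG calls were methylated, with a Wilson interval reaching 2.85%.

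Across all members CCG was the least methylated CHG trinucleotide in each of the 4 libraries. In WT, 40.2% of CAG calls, 40.9% of CTG calls and 25.6% of CCG calls were methylated. The ccr4a ccr4b library had 42.3%, 43.1% and 26.2%. The levels in ddm1 rdr2 were 7.38%, 7.46% and 2.80%, and those in the 4-gene mutant 7.19%, 7.23% and 2.53%. The mutants with ddm1 and rdr2 were below the other libraries in every trinucleotide by more than the counting intervals. Chloroplast DNA, which carries no such methylation and shows incomplete conversion, read as methylated in 0.0884% to 0.114% of calls over the 3 trinucleotides and 4 libraries, and CCG was not set apart there, with 0.0918% in WT and 0.108% in ddm1 rdr2.

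**Figure D1:**
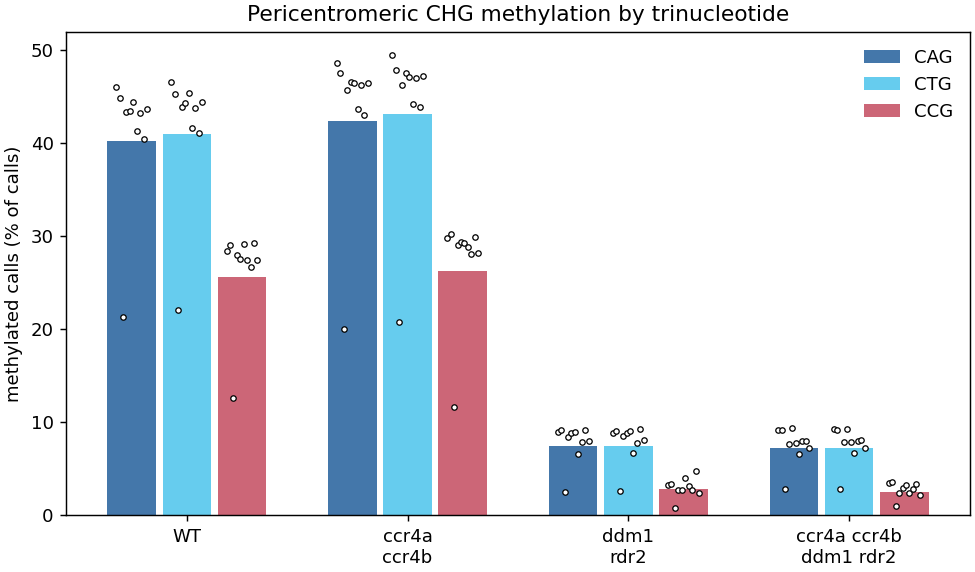
Methylation level (percent of calls) of pericentromeric CAG, CTG and CCG by library, with the levels of single flanks as points; each genotype is 1 library. CAG and CTG sit together near 40% in WT and near 7% in ddm1 rdr2, CCG lies below them in each library, and the lowest point of each bar is the left flank of chromosome 2.

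In WT, CCG minus CAG and CTG was -15.0 points (-15.1 to -15.0), and ccr4a ccr4b had -16.5 points. The same difference was -4.62 points for ddm1 rdr2 and -4.68 for the 4-gene mutant. As a ratio, CCG stood at 63.0% of the CAG and CTG level in WT and 61.5% in ccr4a ccr4b, but at 37.8% in ddm1 rdr2 and 35.1% in the 4-gene mutant. The gap in points was smaller in the ddm1 rdr2 backgrounds while the relative gap was wider. Each array has a left and a right flank, and CCG was below CAG and CTG in 10 of 10 flanks in each library. The ratio ranged over flanks from 58.0% to 71.8% in WT and from 29.4% to 51.6% in ddm1 rdr2, and these ranges do not overlap. In windows of 10 kb with at least 20 cytosines of each class, CCG was the lower class in 1585 of 1731 pericentromeric windows in WT (91.6%), against 58.7% of all nuclear windows. The nuclear windows, 10859 here, include the pericentromeric ones in this and later comparisons. The counts for ccr4a ccr4b, ddm1 rdr2 and the 4-gene mutant were 1592, 1611 and 1598, against 54.2%, 66.3% and 67.3% of nuclear windows.

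CCG was also the lowest trinucleotide in the arms and the arrays, with a gap of another size. Along the chromosome arms CCG was at 70.5% of the CAG and CTG level in WT and at 47.3% in ddm1 rdr2, in a setting where WT CAG and CTG reached 7.65% of calls. Within the centromeric arrays 11732 of 124609 listed CCG cytosines had enough calls, against 14632 of 45862 for CAG, so the classes were sampled unequally. Over these covered cytosines CCG was at 56.6% of the CAG and CTG level in WT and at 21.7% in ddm1 rdr2. On this ratio the pericentromere therefore lay between the arms and the arrays in WT, as it did in ddm1 rdr2, and in both libraries the counting intervals of the 3 regions were apart.

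Among single cytosines called 10 times or more in every library (343768 CAG and CTG, 105594 CCG), CCG differed from CAG and CTG more in the median and at high levels than in the share of cytosines at 0 in WT. The median cytosine of CAG and CTG was methylated at 43.5% in WT, and the median CCG at 24.0%. Levels of 80% and over were found at 6.28% of CAG and CTG cytosines and at 0.431% of CCG cytosines. No methylated call at all was seen at 8.39% and 10.9% of them. In ddm1 rdr2 the cytosines with no methylated call were 38.7% of CAG and CTG and 63.0% of CCG, and the medians were 3.13% and 0. Intermediate levels at single CHG cytosines were thus common in WT, and in ddm1 rdr2 most cytosines of both classes were under 20%, with 85.9% of CAG and CTG and 96.4% of CCG.

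**Figure D2:**
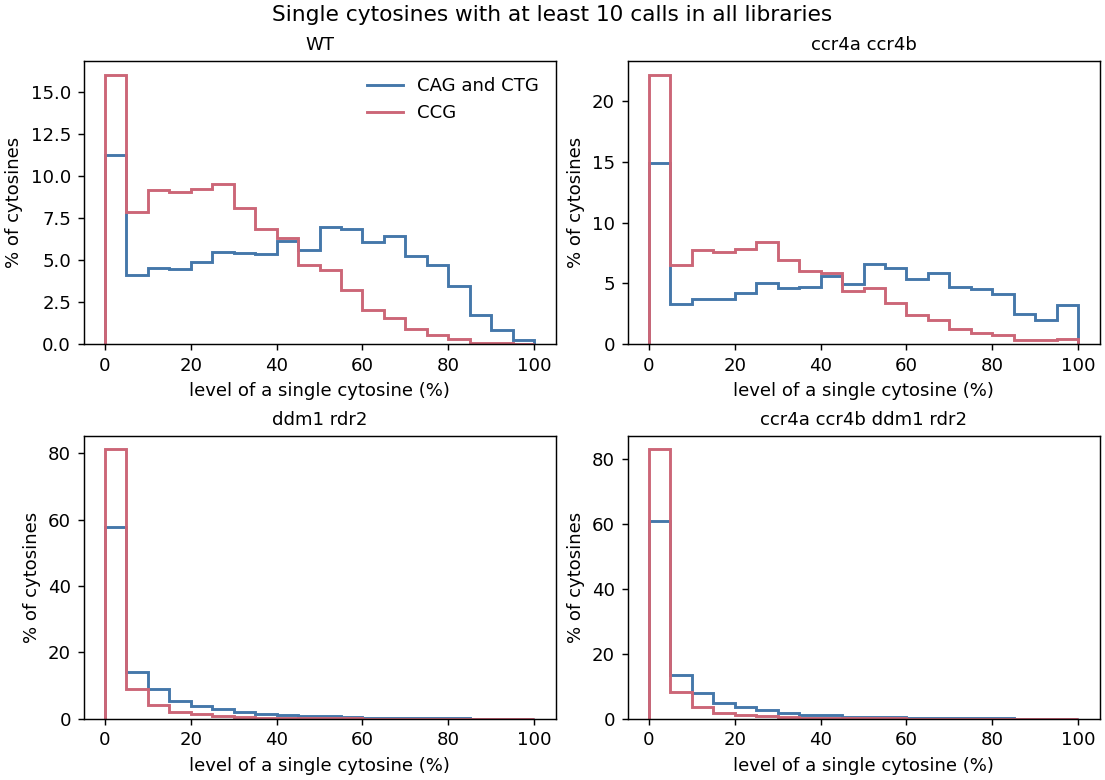
Distribution of methylation at single cytosines called 10 times or more in every library (x axis, percent methylated; y axis, percent of cytosines, scaled separately by panel). CAG and CTG spread to high levels in WT with a median of 43.5%, CCG has a median of 24.0%, and in the ddm1 rdr2 backgrounds the mass lies near 0.

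The share of WT methylation that remained was smaller for CCG than for CAG and CTG. The ddm1 rdr2 library kept 18.3% of the WT level in CAG and CTG (18.2% to 18.3%) and 11.0% in CCG (10.9% to 11.0%). In the 4-gene mutant the shares were 17.8% and 9.91%. CAG and CTG on their own were close to each other, at 18.3% and 18.2% in ddm1 rdr2 and at 17.9% and 17.7% in the 4-gene mutant, though their counting intervals do not overlap. In ccr4a ccr4b CAG and CTG stood at 105% of WT and CCG at 103%. The ratio of the CCG share to the CAG and CTG share was 0.600 (0.597 to 0.602) in ddm1 rdr2 and 0.558 (0.555 to 0.561) in the 4-gene mutant.

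CCG kept less than CAG and CTG in 10 of 10 flanks in each of the mutant libraries. Over flanks, ddm1 rdr2 kept 11.7% to 22.6% of CAG and CTG, with a median of 19.3%, and 6.53% to 16.2% of CCG, with a median of 10.8%. Flanks therefore differed among themselves by more than either class interval, and the ranges of the classes overlap. Among 10 kb windows with at least 5% in WT, the CCG share was the lower in 1434 of 1549 pericentromeric windows in ddm1 rdr2, against 88.8% of nuclear windows, and in 1384 in the 4-gene mutant, against 84.6%. In ccr4a ccr4b it was the lower in 941, or 60.7%, the same as the 60.7% of nuclear windows. The 2893 nuclear windows with at least 5% in WT include the 1549 pericentromeric ones. A lower share for CCG was thus common across the nuclear genome. The arms kept 24.9% of CAG and CTG and 16.7% of CCG in ddm1 rdr2, a ratio of 0.670. The arrays kept 17.9% and 6.84%, a ratio of 0.383.

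**Figure D3:**
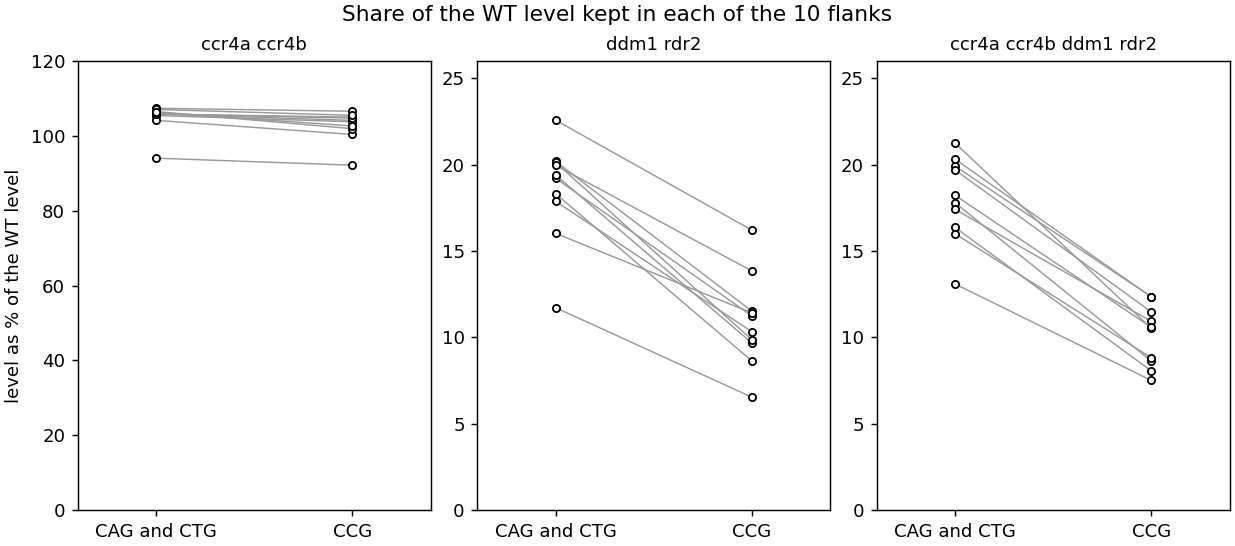
Share of the WT level kept (percent) by CAG with CTG and by CCG in each mutant library, with lines joining the classes of 1 flank; the scale of the ccr4a ccr4b panel differs from the others. CCG lies below CAG and CTG in 10 of 10 flanks in ddm1 rdr2 and in the 4-gene mutant.

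The left flank of chromosome 2 stood apart in depth and level. Its stretch from 3.3 to 3.8 Mb held 2.75% of the members but between 9.49% and 12.7% of their calls, with 187 calls per cytosine in WT against 50.4 elsewhere. In that stretch WT methylation was 10.8% in CAG and CTG and 6.77% in CCG, and ddm1 rdr2 had 0.728% and 0.226%. Chromosome 2 of Col-0 is known to carry a large insertion of mitochondrial DNA near the centromere; whether the stretch is that insertion was not tested. Without it, the ddm1 rdr2 library kept 19.2% of CAG and CTG and 11.6% of CCG. A limit on depth across all flanks moved the shares further. Of the members, 41.0% stay when cytosines over 3 times the nuclear median depth in any library are left out, and ddm1 rdr2 then kept 25.1% and 17.3%. CCG remained the lower class in both settings. Under the limit on depth its share was closer in ratio to that of CAG and CTG than over all members. The shares given for the arms and the arrays were computed without that limit, so the order of the regions holds only without it.

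The inner cytosine of the same CCG, a CG site, was far more methylated than the outer one. At 133422 CCG sites with both cytosines covered, WT had 25.6% at the outer and 72.4% at the inner cytosine, and ddm1 rdr2 had 2.80% and 11.4%. The ddm1 rdr2 library thus kept 15.8% of the inner and 10.9% of the outer methylation, and the 4-gene mutant kept 16.0% and 9.91%. The outer level was higher where the inner one was higher, in each library. In WT, CCG stood at 2.50% where the inner cytosine was under 20%, 22.0% where it was between 20% and 80%, and 31.7% where it was at 80% or over. In ddm1 rdr2 the same classes had 1.18%, 8.91% and 13.2%.

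Few CCG sites had a highly methylated inner cytosine in ddm1 rdr2. In ddm1 rdr2, 74.5% of CCG sites had an inner cytosine under 20%, and 2.07% had one at 80% or over. These 2757 sites were not typical of WT: their outer cytosines had a single-cytosine mean of 16.3% in WT and 14.3% in ddm1 rdr2. The 99379 sites with an inner cytosine under 20% in ddm1 rdr2 had outer means of 24.1% in WT and 1.20% in ddm1 rdr2. The classes were thus made of different sites in the libraries. The outer level differed little from WT where the inner one was high in ddm1 rdr2. Those sites were picked by their inner level in ddm1 rdr2 itself, so the small difference may follow from the choice.

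Surrounding methylation divided the members further. In bins of 200 bp, WT CAG and CTG stood at 3.32% where the CG level of the bin was under 20%, 40.4% between 20% and 80%, and 46.0% at 80% and over. For CCG the values were 2.22%, 23.0% and 31.0%. In ddm1 rdr2 the classes had 6.13%, 15.3% and 6.08% for CAG and CTG, and 1.85%, 8.11% and 10.5% for CCG. The bins were classed anew in each library, so a class holds different cytosines in each. The cytosines in bins at 80% or over in ddm1 rdr2 were low in WT already, with single-cytosine means of 5.37% in WT and 6.02% in ddm1 rdr2 for CAG and CTG, and 11.7% and 12.2% for CCG. Those in bins under 20% in ddm1 rdr2 went from 41.4% to 7.14% for CAG and CTG, and from 25.3% to 1.93% for CCG. Bins at 80% or over held 0.799% of CAG and CTG cytosines and 0.659% of CCG cytosines in ddm1 rdr2.

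CHH methylation, the context of RNA-directed DNA methylation and CMT2, gave a steadier order. Where the bin had less than 2% CHH methylation, CAG and CTG stood at 2.54% in WT and 3.28% in ddm1 rdr2. Where it had 10% or more they stood at 49.3% and 30.6%. CCG stood at 1.99% and 1.15% in the lowest class and at 32.6% and 13.1% in the highest. These classes too were made within each library, and the lowest held 11.8% of CAG and CTG cytosines in WT and 63.0% in ddm1 rdr2. The CAG and CTG cytosines of the lowest ddm1 rdr2 class had a single-cytosine mean of 35.1% in WT and 3.84% in ddm1 rdr2, and those of the highest 51.5% and 32.4%. For CCG the means were 22.7% and 1.38% in the lowest class, and 33.9% and 14.4% in the highest. In ddm1 rdr2 the highest class held 5.99% of CAG and CTG cytosines and 19.99% of their methylated calls, and 6.07% of CCG cytosines with 28.1% of theirs. In the 4-gene mutant the highest class held 3.08% of CAG and CTG cytosines at 36.7% and 2.03% of CCG cytosines at 20.4%.

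The strands were nearly even. Plus minus minus strand over all CHG was 0.143 points in WT (0.109 to 0.176). The other libraries had 0.331 (ccr4a ccr4b), 0.0920 (ddm1 rdr2) and 0.0640 points (4-gene mutant). The difference was positive for CCG in each library, from 0.0520 to 0.105 points. For CAG it was -0.0377 points in ddm1 rdr2 while CTG had 0.206. Without cytosines over 3 times the median depth of the members, the ccr4a ccr4b difference over all CHG came to -0.00170 points. Strand differences of this size are small against the spread between flanks.

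CTG exceeded CAG by a small margin. CTG minus CAG was 0.683 points in WT (0.644 to 0.722) and 0.753 points in ccr4a ccr4b. It was 0.0789 points for ddm1 rdr2 and 0.0384 for the 4-gene mutant. It was above 0 in 10 of 10 flanks in WT and ccr4a ccr4b, in 7 in ddm1 rdr2 and in 8 in the 4-gene mutant. Where both cytosines of a pair had at least 10 calls (149821 pairs), the mean of CTG was above that of CAG by 0.673, 0.642, 0.0701 and 0.0503 points, from WT to the 4-gene mutant in the same order.

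Counted over all pairs, partner cytosines of a CAG and CTG pair had unlike levels most often in ccr4a ccr4b. Across pairs, which share library and place and are not replicates, Pearson's r was 0.878 (WT), 0.687 (ccr4a ccr4b), 0.813 (ddm1 rdr2) and 0.854 (4-gene mutant). Both partners were at 50% or over in 35.8%, 34.2%, 1.06% and 1.25% of pairs in that order. One partner at 50% or over with the other under 20% occurred in 0.270%, 3.46%, 0.145% and 0.0694% of pairs. Few pairs reached 50% in the ddm1 rdr2 backgrounds. Among pairs with at least 1 partner at 50% or over, both were there in 70.6%, 59.0%, 40.5% and 46.8%, lowest in ddm1 rdr2. The ccr4a ccr4b library was also the library with the lowest median depth. Restricted to the 16562 pairs with 10 to 40 calls at both cytosines in all libraries, partners differed by 50 points or more in 12.7% of pairs in ccr4a ccr4b (median 17 calls) and in 0.628% in WT (median 28 calls). The ddm1 rdr2 library, with a median of 20 calls, had 0.139%. Its low levels left little room for differences of 50 points. Over the 149821 pairs the mean of CAG was 8.17% in ddm1 rdr2 and 44.1% in ccr4a ccr4b. The part that depth or PCR duplication has in these shares was not tested.

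The base that follows the trinucleotide went with large differences, above all after CAG. In WT, CAG followed by A or T stood at 48.2%, CAG followed by G at 41.8% and CAG followed by C at 22.8%. For CTG the values were 42.4%, 40.9% and 37.8%, so the base after it mattered less. CCG stood at 27.5% before A or T, 29.4% before G and 16.7% before C. A following C went with a lower level than A or T after CAG and after CCG in 10 of 10 flanks in each library. CTG preceded by G, which is the partner of CAGC on the other strand, was at 24.6% in WT, so both strands of the sequence GCTG/CAGC were low.

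**Figure D4:**
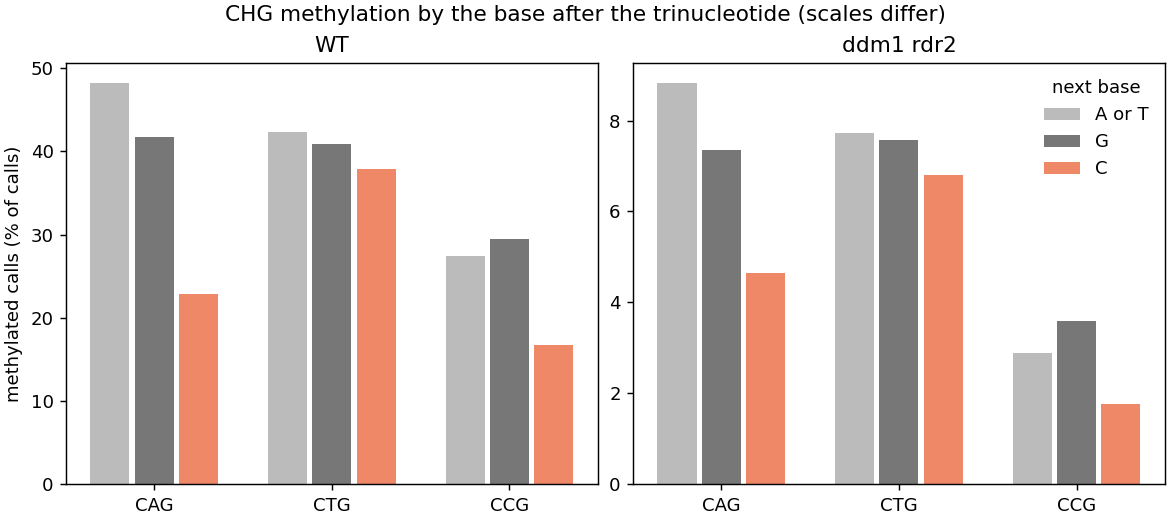
Methylation level (percent of calls, bars) by the base after the trinucleotide for CAG, CTG and CCG in the WT and ddm1 rdr2 libraries, on scales that differ between panels. CAG followed by C stands at 22.8% in WT against 48.2% before A or T, and CCG stands at 16.7% before C.

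CAGC lay below CCG taken over every next base in WT and above it in ddm1 rdr2. Its WT level of 22.8% was lower than the CCG level of 25.6% in 10 of 10 flanks, and its ddm1 rdr2 level of 4.63% was higher than the CCG level of 2.80% in 10 of 10 flanks. CAGC kept 20.3% of its WT level and CCG 11.0%, with CAGC the higher in 10 of 10 flanks. Against CCG that is also followed by C there was no such crossing. That class stood at 16.7% in WT and 1.76% in ddm1 rdr2, below CAGC in both libraries, and kept 10.6%. A low WT level thus did not go with a low kept share in CAGC as it did in CCG. The drop after C was also present where surrounding CG was high. In bins with at least 80% CG methylation in WT, CAG followed by C stood at 26.3% and CAG followed by A or T at 54.3%. In ddm1 rdr2 the same cytosines had 5.57% and 10.3%. This split by the next base was chosen after the data were seen.

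Loss of CCR4a and CCR4b in the WT background went with slightly higher CHG levels over all members. The size of the difference depended on weighting, and its sign for CCG depended on the limit on depth. CAG and CTG in ccr4a ccr4b were 2.11 points above WT (2.08 to 2.14) and CCG was 0.680 above (0.638 to 0.722). With each cytosine weighted equally the differences were 1.29 and 0.202 points. The pooled difference was positive in 9 of 10 flanks for both classes, and the left flank of chromosome 2 was at -1.29 and -0.984 points. By equal weighting it was positive in 10 of 10 flanks for CAG and CTG and in 7 for CCG. Of the 1731 windows, 1176 had a higher CAG and CTG level in ccr4a ccr4b (67.9%), against 44.4% of nuclear windows. A higher CCG level was found in 914 (52.8%), against 35.2%. A pooled rise was not particular to the pericentromere. Along the arms ccr4a ccr4b was 3.79 points above WT in CAG and CTG and 3.03 in CCG. With equal weighting the arms differed by 0.0495 and -0.117 points. Without cytosines over 3 times the nuclear median, ccr4a ccr4b stood at 100.5% of the WT level in CAG and CTG and at 99.3% in CCG, close to WT.

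In the ddm1 rdr2 background the sign of the difference over all members was the opposite. The 4-gene mutant minus ddm1 rdr2 was -0.208 points in CAG and CTG (-0.225 to -0.192) and -0.268 in CCG (-0.285 to -0.250). With equal weighting it was -0.561 and -0.295 points, negative in 8 of 10 flanks for CAG and CTG and in 7 for CCG, whereas the pooled difference was negative in 5 of 10 for either class. Without cytosines over 3 times the nuclear median it was -0.808 points in CAG and CTG and -0.494 in CCG. Windows with a lower level in the 4-gene mutant were 919 of 1731 for CAG and CTG (53.1%), against 44.9% of nuclear windows. For CCG they were 894 (51.6%), against 42.9%, so the pericentromeric windows split nearly evenly in each class. Inside the arrays the pooled difference was -3.40 points in CAG and CTG and -0.947 in CCG, and along the arms 0.0604 and 0.0518. In the flanks it was larger within 1 Mb of the arrays than from 1 to 2 Mb. The pooled CCG difference did not grow steadily towards the arrays, at -0.357 points from 0 to 0.25 Mb and -0.777 from 0.75 to 1 Mb. Within 1 Mb of the arrays, the single-cytosine mean of CAG and CTG went from 8.87% in ddm1 rdr2 to 7.91% in the 4-gene mutant, and that of CCG from 3.37% to 2.77%, lower in 9 and 7 of 10 flanks. Over flanks these differences ranged from -3.16 to 0.645 points in CAG and CTG and from -2.42 to 0.282 in CCG. From 1 to 2 Mb the means went from 8.57% to 8.51% and from 3.30% to 3.37%, lower in 5 and 3 flanks. The pooled differences were -0.395 and -0.538 points within 1 Mb, each negative in 7 flanks. From 1 to 2 Mb they were positive, at 0.0489 points in CAG and CTG (0.0202 to 0.0776) and 0.191 in CCG (0.159 to 0.222), and negative in 4 and 1 flanks.

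**Figure D5:**
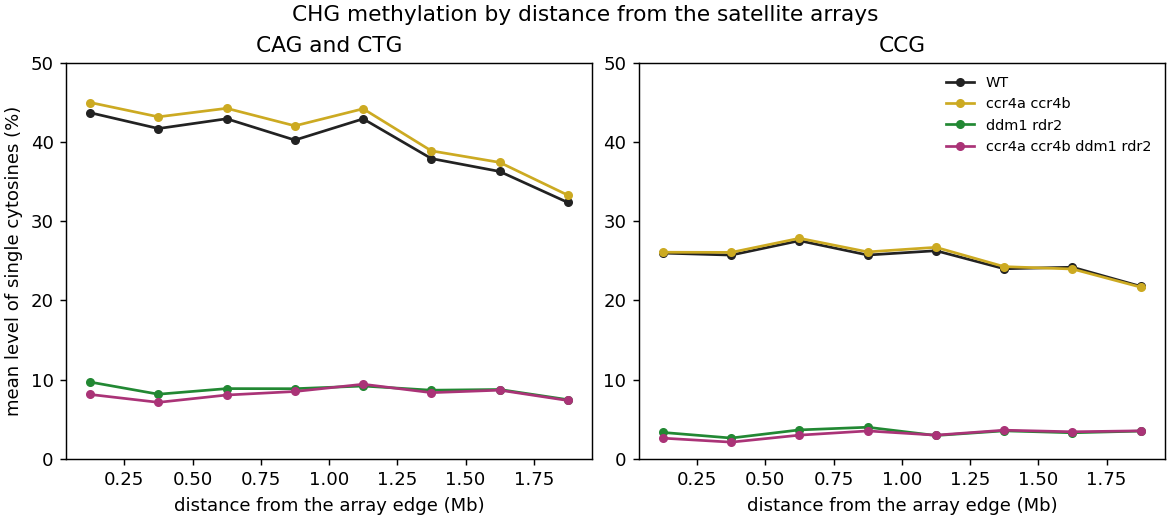
Single-cytosine mean methylation (percent) of CAG with CTG and of CCG by distance from the edge of the array, in steps of 250 kb over 2 Mb, for the 4 libraries. WT is lower at 1.75 to 2 Mb than next to the arrays, and the 4-gene mutant lies below ddm1 rdr2 nearest the arrays, at 8.12% against 9.69% in CAG and CTG.

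The change of WT levels with distance depended on weighting. In the 250 kb next to the arrays the single-cytosine mean was 43.7% for CAG and CTG and 25.99% for CCG in WT, and from 1.75 to 2 Mb it was 32.4% and 21.8%. Pooled over calls, CAG and CTG stood at 39.2% next to the arrays and 38.4% in the outermost step, and CCG was higher in the outermost step, at 25.2% against 22.4%. The deeply covered stretch of chromosome 2 lies beside the array of that chromosome, so its calls fall mainly in the steps nearest the arrays. It had 187 calls per cytosine in WT, at 10.8% in CAG and CTG and 6.77% in CCG. Pooled levels by distance were not computed without it, so its part in the pooled pattern was not tested. By single-cytosine mean, ddm1 rdr2 stood at 9.69% and 3.32% nearest the arrays, and the 4-gene mutant at 8.12% and 2.60%.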

How the data were processed

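Cytosine reports of methylated and unmethylated calls were deposited by the authors, 1 per library, as counts for each cytosine with its strand and trinucleotide; these counts are what was used. Reads had been processed with Bismark 0.22.3, per the submitters' processing notes, and the names of the deposited files point to paired-end reads aligned to the ColCEN assembly. Whether duplicate reads were removed is not given in the sources used here. No genome or gene annotation of this build was used, so sequences were read from the tabulated trinucleotides and no gene is named.

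Levels are pooled methylated calls over all calls, computed with Python 3.11.15, numpy 2.4.6 and pandas 2.3.3, and figures with matplotlib 3.10.9. Members need at least 4 calls in all 4 libraries; the deposited tables hold 0 nuclear cytosines with 1 or 2 calls. Nuclear calls came to 774313581, 574097022, 745511802 and 785451909 in WT, ccr4a ccr4b, ddm1 rdr2 and the 4-gene mutant. Median calls per member were 46, 27, 33 and 35 in the same order, and chloroplast calls served as the conversion control. Mean calls per member were 54.2, 54.2, 44.6 and 41.3. The mean lay furthest above the median in ccr4a ccr4b, so its pooled levels rest more on deeply covered cytosines. Flanks, 10 kb windows, 200 bp bins and CAG/CTG pairs were summarised per library; the code was tested on simulated data. With 1 library per genotype no test was made. The named windows were the richest in well-covered CHG cytosines of each chromosome, as the rule stated. The members, lists and alternatives were chosen with earlier results of these data known, and the chromosome 2 stretch, the next-base split and the nuclear-median limit were chosen after seeing the data.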

Additional observations from a re-analysis of the deposited data

Results flagged for a closer look

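Pooled over all members, the ccr4a ccr4b difference had opposite signs in the 2 backgrounds in each trinucleotide. By flank, the difference in the ddm1 rdr2 background was negative in 4 of 10 flanks for CAG and in 5 for CTG and for CCG. The difference in the ddm1 rdr2 background minus that in the WT background was -2.26 points for CAG, -2.37 for CTG and -0.948 for CCG. In CAG, for instance, ccr4a ccr4b stood 2.07 points above WT and the 4-gene mutant -0.188 points from ddm1 rdr2. Since each genotype is 1 library, the difference was not tested, and it depended on depth. Without cytosines over 3 times the nuclear median, ccr4a ccr4b stood at 100.5% of WT in CAG and CTG and 99.3% in CCG, while the 4-gene mutant minus ddm1 rdr2 was -0.808 and -0.494 points. The CCG difference was then negative in both backgrounds, so its signs were no longer opposite.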

How the results depend on the processing

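Values follow the order WT, ccr4a ccr4b, ddm1 rdr2 and 4-gene mutant, or the last 3 for the shares of the WT level kept, and differences between mutants give CAG and CTG before CCG. A value that moved by less than its counting interval is left out. CCG stayed below CAG and CTG under each alternative below, and kept the smaller share under each except the common GC distribution, where the share was not computed. With at least 10 calls, CCG minus CAG and CTG came to -15.1, -16.6, -4.49 and -4.54 points, the CAG and CTG shares to 105%, 17.7% and 17.1%, the CCG shares to 102%, 10.6% and 9.54%, the 4-gene mutant minus ddm1 rdr2 in CAG and CTG to -0.231 points. With cytosines weighted equally, CCG minus CAG and CTG came to -14.9, -16.0, -5.40 and -5.13 points, the CAG and CTG shares to 103%, 21.7% and 20.3%, the CCG shares to 101%, 13.2% and 12.0%, the 4-gene mutant minus ddm1 rdr2 to -0.561 and -0.295 points, the strand difference of WT, ccr4a ccr4b and ddm1 rdr2 to 0.105, 0.0596 and 0.0595 points. Without cytosines over 3 times the median of the members, CCG minus CAG and CTG came to -16.5, -17.7, -5.48 and -5.20 points, the CAG and CTG shares to 104%, 20.9% and 19.5%, the CCG shares to 102%, 13.0% and 11.8%, the 4-gene mutant minus ddm1 rdr2 to -0.578 and -0.298 points, the strand difference of WT, ccr4a ccr4b and the 4-gene mutant to 0.0112, -0.00170 and 0.0931 points. Within 1 Mb, CCG minus CAG and CTG came to -14.8, -15.9, -4.14 and -4.28 points, the CAG and CTG shares to 103%, 17.3% and 16.3%, the CCG shares of ccr4a ccr4b and the 4-gene mutant to 100.3% and 8.74%, the 4-gene mutant minus ddm1 rdr2 to -0.395 and -0.538 points. Within 3 Mb, CCG minus CAG and CTG came to -14.1, -15.8, -4.47 and -4.49 points, the CAG and CTG shares to 108%, 18.9% and 18.4%, the CCG shares to 106%, 11.4% and 10.6%, the 4-gene mutant minus ddm1 rdr2 to -0.175 and -0.194 points. With a common GC distribution, CCG minus CAG and CTG came to -14.9, -16.1, -4.74 and -4.70 points. Without cytosines over 3 times the nuclear median, CCG minus CAG and CTG came to -15.0, -15.3, -5.61 and -5.30 points, the CAG and CTG shares to 101%, 25.1% and 23.0%, the CCG shares to 99.3%, 17.3% and 15.2%, the 4-gene mutant minus ddm1 rdr2 to -0.808 and -0.494 points, the strand difference of ccr4a ccr4b to 0.0809 points. Without the chromosome 2 stretch, CCG minus CAG and CTG came to -15.5, -17.1, -5.10 and -5.13 points, the CAG and CTG shares to 106%, 19.2% and 18.5%, the CCG shares to 104%, 11.6% and 10.4%, the 4-gene mutant minus ddm1 rdr2 to -0.302 and -0.337 points, the strand difference of WT and ccr4a ccr4b to 0.0575 and 0.176 points. The limit at the nuclear median and the omission of the chromosome 2 stretch were chosen after seeing the data. The CCG share of ccr4a ccr4b at 99.3% and its strand difference of -0.00170 points were the 2 values that changed direction, and the cause was not tested. The other 13 values moved by less than their counting interval, which at this depth is narrow. No paired analysis was possible because each genotype has 1 library, which also leaves no library to leave out.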
